A study of Mus musculus with 9 samples.

Results

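The genes described here encode the proteins of the mitochondrial ribosome, in germinal center B cells of the mouse spleen with and without the transcription factor Foxo1. They are all genes whose symbol starts with Mrpl or Mrps followed by a digit, and they were chosen by name, not by any measured value. The rule found 76 genes, 47 of them named for the large subunit (Mrpl) and 29 for the small subunit (Mrps), among 22977 genes with a single locus and no failed estimate. Each symbol had 1 locus, and all 76 passed the filter on low values, so they are 76 of the 10004 genes tested.

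The data were gene-level FPKM values (FPKM is a fragment count scaled to transcript length and library size) of 9 RNA libraries in 3 groups of 3. Foxo1-deficient cells were Foxo1(f/f), marked as CD45.1/2, and sorted with no zone gate. Dark zone (DZ) and light zone (LZ) cells were Foxo1(+/+), marked as CD45.1/1, and sorted as CD86lo CXCR4hi for DZ and as CD86hi CXCR4lo for LZ. Both donor genotypes also carried ERT2cre(KI/+) and B1-8hi(KI/+) on a C57BL/6 background, and their B cells were transferred together, in equal numbers, into C57BL/6 hosts immunized with the hapten-protein conjugate NP-CGG in alum. Tamoxifen, which activates ERT2cre, was fed to the hosts from day 7 to day 9, and all groups were sorted from spleen on day 12 as B220+ NP+ GL7+ CD38-. Every group thus carried the recombinase and the B1-8hi antigen receptor gene, and every group had seen tamoxifen. The labels state neither the age of the mice nor whether replicates came from separate hosts, so the spread behind each p-value may be technical. The labels list the Foxo1(f/f) cells as CD45.1/2 but sorted as CD45.2-negative, and which entry holds could not be settled. Genotype and gate change together between the Foxo1-deficient and the zone libraries and cannot be told apart.

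The mitochondrial ribosome translates the few proteins encoded by mitochondrial DNA, all of them subunits of the respiratory chain or ATP synthase. Its ribosomal RNAs come from mitochondrial DNA, but its proteins are encoded in the nucleus, made in the cytosol and imported. Some of them descend from bacterial ribosomal proteins, and others have no bacterial counterpart and were added in the evolution of mitochondria. In activated lymphocytes, growth and division go with an increase in mitochondrial mass and protein synthesis, and Myc is known to drive many of the nuclear genes concerned.

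The libraries were checked against their labels first. Foxo1 had 3.01, 1.79 and 0.808 FPKM in the Foxo1-deficient libraries, 24.5, 19.5 and 19.1 in DZ, and 14.8, 18.7 and 22.1 in LZ. Cxcr4, used for the zone gate, had 17.6 to 24.7 FPKM in Foxo1-deficient cells, 59.6 to 79.5 in DZ and 28.9 to 37.9 in LZ, and Cd86, the other gate gene, had 55.0 to 58.8 in Foxo1-deficient cells, 12.5 to 18.2 in DZ and 44.3 to 58.3 in LZ. The B cell marker Cd79a, a subunit of the antigen receptor, had 349.9 to 457 FPKM in Foxo1-deficient libraries, 317 to 383 in DZ and 373 to 496 in LZ, and the 5 T cell markers found summed to at most 1.16 in any library. In the Foxo1-deficient libraries, 12 myeloid markers summed to 169 to 334 FPKM, against 0 to 4.66 in DZ and 2.14 to 6.63 in LZ, where S100a8, Tyrobp, Csf1r, Ngp, Camp and Ltf were at 0 in every library. Of the 9 that could be tested, all 9 were higher than in DZ and 8 higher than in LZ. Erythroid markers, 5 of the 7 listed being found, summed to 166 to 544 in Foxo1-deficient libraries, 12.9 to 21.7 in DZ and 21.9 to 44.4 in LZ, and all 4 tested were higher against both zones. Each of these sums was highest in Foxo1-deficient replicate 3. There the myeloid and erythroid markers made up 0.113% and 0.1845% of the FPKM of single-locus genes. These are shares of the marker genes found, not of cells. That library also stood apart in coverage, with 239 of 9088 well covered genes listed at 0, against 11 to 73 in the other 8 libraries. DZ replicate 3 had the smallest FPKM total of the 9 libraries. In each comparison below, the part that the other cell types or these libraries play was not tested, and medians and ratios without replicate 3 are given beside the main ones.

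Many of these genes start next to another gene. RefSeq promoter entries (GRCm38.p6) were matched for 67 of the 76 genes, and 25 of them had another gene's start on the opposite strand within 1000 bases upstream. This was 37.3% of the matched genes, against 21.6% of the 7136 tested genes with an entry. The stretches between both starts are shown for 4 genes on which the results turn: Mrpl14, the single gene that passed the test, Mrps12, the next by adjusted p, Mrpl46, which shares its start region with another gene of the set, and Mrps18c, the one gene of the set whose DZ libraries all lay above its LZ libraries. They are given 5′ to 3′ on the strand of the named gene, and capitals mark a match to the ETS motif CCGGAAG on either strand.
Mrpl14 to Tmem63b, chr17:45686219-45686348, plus strand: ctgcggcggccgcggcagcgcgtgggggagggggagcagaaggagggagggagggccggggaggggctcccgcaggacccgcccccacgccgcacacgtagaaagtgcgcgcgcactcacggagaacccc
Mrps12 to Sars2, chr7:28741822-28741967, minus strand: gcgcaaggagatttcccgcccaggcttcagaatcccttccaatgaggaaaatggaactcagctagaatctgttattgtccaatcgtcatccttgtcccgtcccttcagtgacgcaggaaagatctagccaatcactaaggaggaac
Mrpl46 to Mrps11, chr7:78783090-78783130, minus strand: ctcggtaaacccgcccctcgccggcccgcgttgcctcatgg
Mrps18c to Helq, chr5:100798601-100798758, plus strand: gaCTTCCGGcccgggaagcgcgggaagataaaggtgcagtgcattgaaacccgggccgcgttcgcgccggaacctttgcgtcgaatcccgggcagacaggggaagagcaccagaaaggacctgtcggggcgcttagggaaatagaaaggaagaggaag

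Short motifs were counted in the whole promoter window of 250 bases before to 50 bases after each start, on both strands. The ETS motif CCGGAAG, read by factors of the GABP kind, was in 24 of the 67 genes (35.8%), against 23.2% of the tested genes with an entry. The YY1 motif AAGATGGC was in 12 genes (17.9% against 6.04%), and the NRF1 motif, GCGC and TGCGC with any base between them, in 12 (17.9% against 13.2%). The E-box CACGTG, which Myc can bind, was in 5 genes (7.46% against 12.4%), and the Foxo motif TGTTTAC in 2, Mrpl40 and Mrpl44 (2.99% against 3.06%). Among the 4 genes shown, the whole window of Mrps12 held an ETS and a YY1 match, that of Mrpl14 an NRF1 match, and that of Mrps18c an E-box besides the marked ETS match. These are matches of letters and not measured binding.

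Levels differed far more among the 76 genes than between the groups. The mean FPKM over the 9 libraries ran from 2.99 (Mrpl17) to 129 (Mrps21), with a median of 14.9, against 7.23 for all tested genes. Mrps21, the homolog of bacterial ribosomal protein S21, stood alone at the top, with 109 to 129 FPKM in Foxo1-deficient cells, 136 to 139 in DZ and 120 to 138 in LZ. The next levels were those of Mrpl42 (56.5), Mrps18c (54.9), Mrpl52 (54.4) and Mrpl23 (51.5), the last a homolog of the bacterial protein at the exit of the peptide tunnel. The lowest were those of Mrpl11, Mrps31, Mrpl35 and Mrpl17 (5.24, 4.87, 4.67 and 2.99), besides Mrps6, which is described below. In the order of levels, 74 of the 75 pairs of neighbours differed by less than the larger of their SDs over the 9 libraries, the exception being the step from Mrps21 to Mrpl42. FPKM is a level per length of transcript, so the order of genes depends on the transcript lengths used, and a short gene's value can rest on few fragments. Mrpl17, the lowest gene, had a median of 104 fragments per library implied by its confidence intervals. Mrpl14, at a mean of 14.4 FPKM, had 32.4.

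The summed level of the 76 genes was lower in Foxo1-deficient cells than in LZ. The sum was 1454, 1401 and 1204 FPKM in the Foxo1-deficient libraries, 1646, 1626 and 1258 in DZ, and 1593, 1609 and 1634 in LZ. All 3 Foxo1-deficient libraries lay below the 3 LZ libraries, while DZ replicate 3 fell within the range of the Foxo1-deficient libraries. The means were 1353 ± 132 in Foxo1-deficient cells, 1510 ± 219 in DZ and 1612 ± 20.8 in LZ (SD, n = 3 each), with ratios of 0.839 for Foxo1-deficient over LZ, 0.896 for Foxo1-deficient over DZ and 0.937 for DZ over LZ. As a share of the FPKM of single-locus genes in each library, in ppm, the set held 4753, 4520 and 4082 in Foxo1-deficient cells, 5583, 5384 and 5140 in DZ, and 5002, 5030 and 5317 in LZ. On this scale the Foxo1-deficient libraries lay below all 6 zone libraries, but this depended on the denominator. Over the FPKM of all entries, repeated symbols included, the shares were 4660.35, 4474 and 3699 ppm in Foxo1-deficient cells, 5477, 5234 and 5037 in DZ, and 4906, 4611 and 5260.45 in LZ, so that the Foxo1-deficient libraries lay below DZ but Foxo1-deficient replicate 1 lay above LZ replicate 2. Without Foxo1-deficient replicate 3 the ratio of Foxo1-deficient cells was 0.885 to LZ and 0.945 to DZ. Without DZ replicate 3 the ratio of Foxo1-deficient to DZ was 0.827. That of DZ over LZ was then 1.015, so the direction between the zones turned. A sum over chosen genes was given no test, and in bulk RNA fewer cells of a kind and less RNA per cell cannot be told apart.

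**Figure D1:**
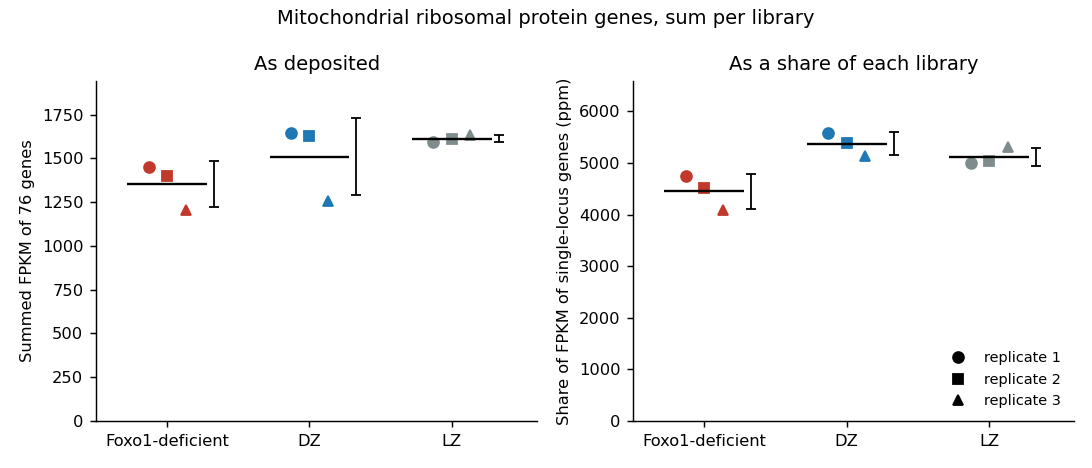
Summed FPKM of the 76 mitochondrial ribosomal protein genes per library (left, FPKM as deposited; right, as ppm of the FPKM of single-locus genes in each library), in Foxo1-deficient, DZ and LZ cells, with circles, squares and triangles for replicates 1, 2 and 3, horizontal lines for group means and bars for ± 1 SD (n = 3). The Foxo1-deficient libraries lie between 1204 and 1454 FPKM on the left and between 4082 and 4753 ppm on the right, where all 3 are below the 6 zone libraries with this denominator.

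Against LZ, the Foxo1-deficient cells had lower values for most of these genes, but no single gene passed the test. The change was below 0 for 55 of the 76 genes (72.4%), where 52% of all tested genes were below 0. Their median change was -0.26 on the log2(FPKM + 1) scale, against -0.020 for all tested genes, a difference of -0.24. By limma, 0 of 76 were higher and 0 lower at an adjusted p under 0.05, where 0.69% and 0.87% of all tested genes were higher and lower, 1.56% in all. At an unadjusted p under 0.05, 10 were lower and 1 was higher, against 7.64% and 5.79% of all tested genes, and limma with voom weights also called 0. The median was -0.41 for the 29 Mrps genes and -0.23 for the 47 Mrpl genes, and -0.34 for the 47 genes with a bacterial homolog against -0.15 for the 29 without one. No test was made of these differences between classes, and class medians were not taken without Foxo1-deficient replicate 3. The 3 genes listed at 0 in that library, Mrps6, Mrps34 and Mrps35, are all Mrps genes. Without Foxo1-deficient replicate 3, the median was -0.15, with 50 of 76 below 0, against 0.017 for all tested genes.

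**Figure D2:**
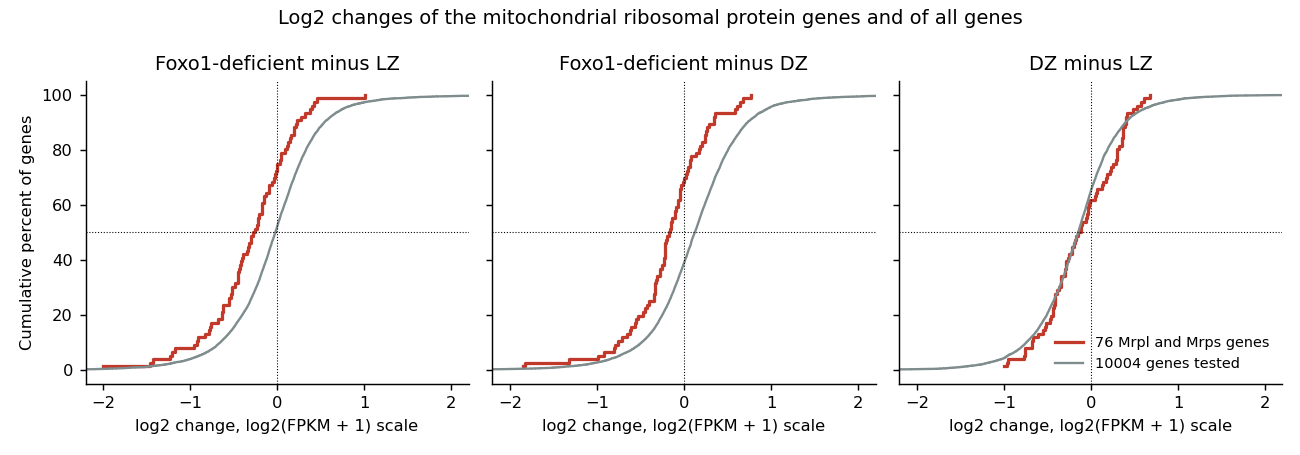
Cumulative percent of genes (vertical axis) by log2 change on the log2(FPKM + 1) scale (horizontal axis, shown from -2.2 to 2.2) for the 76 genes in red and all 10004 tested genes in grey, in each of the 3 comparisons. The red curve lies left of the grey one in both Foxo1-deficient comparisons, with medians of -0.26 against -0.020 and of -0.17 against 0.12, and runs close to it between the zones, with medians of -0.13 and -0.15.

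The genes with the lowest changes against LZ were Mrpl16, Mrps12 and Mrps34, the last through a single listed 0: its change was -1.43 (limma adjusted p = 0.53) and -0.010 without Foxo1-deficient replicate 3. Mrps12 (chr7:29524660-29526800, mm9), the homolog of the bacterial protein S12 of the decoding center, had 11.0, 4.91 and 5.62 FPKM in Foxo1-deficient cells, 11.2, 8.48 and 19.9 in DZ, and 20.4, 18.8 and 22.1 in LZ. The Foxo1-deficient and LZ libraries did not overlap, and the change was -1.46 ± 0.33 (SE, limma adjusted p = 0.0568). It passed the threshold in 2 of 17 alternatives, without Foxo1-deficient replicate 1 (adjusted p = 0.0293) and without DZ replicate 3 (adjusted p = 0.0437). Sars2, the mitochondrial seryl-tRNA synthetase gene at the other end of the stretch shown for Mrps12, changed by 0.08 (limma adjusted p = 0.936). Mrpl16 (chr19:11844905-11849436, mm9), a large-subunit gene with a bacterial homolog, had 9.62, 0.753 and 3.13 FPKM in Foxo1-deficient cells and 24.5, 17.6 and 9.35 in LZ. Its groups overlapped by a narrow margin, through Foxo1-deficient replicate 1 and LZ replicate 3, and its change was -1.999 ± 0.55 (limma adjusted p = 0.118). Without Foxo1-deficient replicate 1 it was -2.66 (limma adjusted p = 0.0215).

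In 6 of the 76 genes all Foxo1-deficient libraries lay below all LZ libraries (7.89%, against 9.37% of all tested genes): Mrps7, Mrpl18, Mrpl14, Mrpl2, Mrps12 and Mrpl23. Mrpl2, the homolog of a bacterial protein near the peptidyl transferase center, had 13.9, 9.43 and 8.91 FPKM in Foxo1-deficient cells and 24.96, 16.9 and 21.5 in LZ. Its change was -0.92 ± 0.33 (limma adjusted p = 0.232). Mrpl23 had 41.9, 29.7 and 57.1 FPKM in Foxo1-deficient cells and 67.5, 67.7 and 59.1 in LZ (-0.63, limma adjusted p = 0.237). RefSeq lists 1 pseudogene named for Mrpl23, so reads may be shared.

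Mrps36 stood at the other end of the range. It was named as a small-subunit gene, but its protein is known as a part of the mitochondrial 2-oxoglutarate dehydrogenase complex. It had 31.7, 36.1 and 44.1 FPKM in Foxo1-deficient cells, 37.8, 23.2 and 14.4 in DZ, and 28.1, 17.3 and 11.7 in LZ. It was the 1 gene of the set whose Foxo1-deficient libraries all lay above those of LZ, where 8.12% of all tested genes did so. Its changes of 1.01 ± 0.35 against LZ and 0.64 ± 0.35 against DZ did not pass (limma adjusted p = 0.229 and 0.414). RefSeq lists 3 pseudogenes named for it, so reads may be shared and its value is uncertain. The other high changes against LZ were those of Mrpl46 (0.46) and Mrpl53 (0.42), with limma adjusted p = 0.571 and 0.781. Both rest on 1 LZ library: Mrpl46 was at 0.12 without LZ replicate 2, and Mrpl53 at -0.21 without LZ replicate 1.

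Against DZ, 1 gene of the set was lower, Mrpl14. This was 1 of 76 (1.32%), where 0.75% of all tested genes were lower, and 0 of 76 were higher, where 2.1% of all tested genes were (2.85% in all). Mrpl14 (chr17:45823321-45835444, mm9) encodes a large-subunit protein, with a bacterial homolog, at the interface between the subunits. It had 4.05, 7.44 and 5.06 FPKM in Foxo1-deficient cells, 27.3, 28.02 and 13.7 in DZ, and 19.0, 8.28 and 17.2 in LZ. The Foxo1-deficient libraries lay below all 6 zone libraries. The change against DZ was -1.85 ± 0.36 (limma adjusted p = 0.02), and that against LZ, -1.23 ± 0.36, did not pass (limma adjusted p = 0.147). The median number of fragments implied by its confidence intervals was 32.4 per library, a low number for this set, in which the median gene had 83.8.

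The Mrpl14 call was not kept in 7 of 17 alternatives. Its adjusted p was 0.161 with voom weights, 0.0623 with no filter, 0.0682 and 0.0549 without Foxo1-deficient replicates 1 and 3, 0.0913 and 0.0929 without DZ replicates 1 and 2, and 0.0529 without replicate 3 of both groups, all by limma. The change stayed between -2.17 and -1.68 throughout. Tmem63b, at the other end of the stretch shown for Mrpl14, had means of 2.17 ± 1.53 FPKM in Foxo1-deficient cells and 1.28 ± 0.24 in DZ (SD, n = 3 each), a change of 0.36 (limma adjusted p = 0.727).

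Most of the 76 genes had lower values than in DZ as well. The change was below 0 for 53 of 76 genes (69.7%), where 38.8% of all tested genes were, and the median was -0.17 against 0.12 for all tested genes, a difference of -0.29. The 3 Foxo1-deficient libraries are shared by both comparisons, and 44 genes were below 0 in both. At an unadjusted p under 0.05, 6 genes were lower and 2 higher, against 4.78% and 11.5% of all tested genes. In 6 genes the Foxo1-deficient libraries all lay below DZ (7.89%, against 5.78%), and in 2, Mrpl1 and Mrpl19, all above (2.63%, against 17.3%). The median rests in part on Foxo1-deficient replicate 3: without it the median was -0.0040, with 38 of 76 below 0, against 0.16 for all tested genes, and without replicate 3 of both groups it was -0.13 against 0.078. Under another scaling, median centring, it was -0.35 against -0.055 for all genes.

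Further genes at the ends of the range against DZ were Mrpl16, Mrps6, Mrpl1 and Mrps11. Mrpl16 had 12.9, 12.4 and 17.3 FPKM in DZ, all above its 3 Foxo1-deficient values, with a change of -1.82 ± 0.55 (limma adjusted p = 0.12). Mrpl1, the homolog of the bacterial protein of the L1 stalk, had 8.57, 14.4 and 11.7 FPKM in Foxo1-deficient cells and 5.75, 6.16 and 6.83 in DZ. Its groups did not overlap, but its change of 0.77 ± 0.34 did not pass (limma adjusted p = 0.29). Mrps11 had a change of 0.67 ± 0.48 (limma adjusted p = 0.541), which was 0.13 without DZ replicate 3. Mrps21, whose libraries varied least, had Foxo1-deficient values of 116, 109 and 129 FPKM, all below its DZ values of 136, 138 and 139, a change of -0.22 ± 0.13 (limma adjusted p = 0.43).

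**Figure D3:**
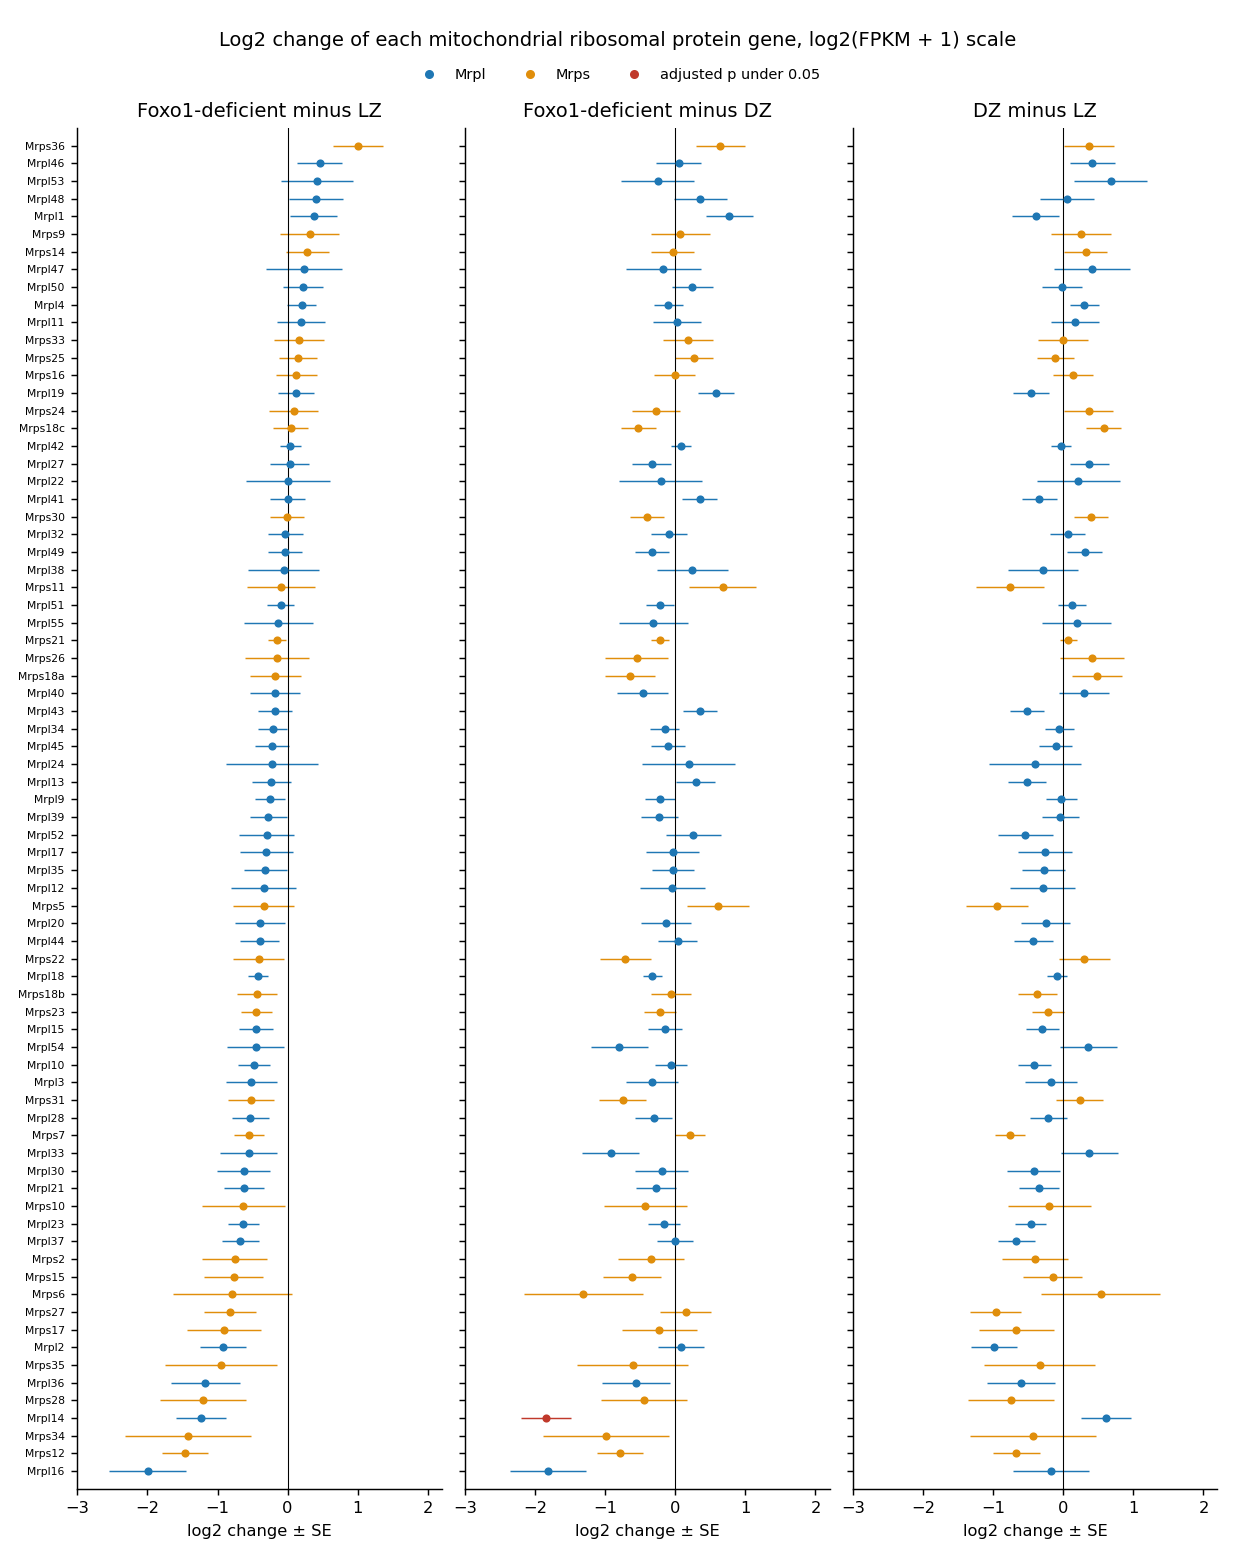
Log2 change (horizontal axis, log2(FPKM + 1) scale, bars ± SE) of each of the 76 genes, ordered by the change of Foxo1-deficient minus LZ, in the 3 comparisons; blue is Mrpl, orange Mrps and red an adjusted p under 0.05. The single red point is Mrpl14 in Foxo1-deficient minus DZ at -1.85, and 55, 53 and 47 of the 76 points lie below 0 in the 3 panels.

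Between the wild-type zones the set did not stand apart from other genes in its median. DZ minus LZ was below 0 for 47 of 76 genes (61.8%), where 65% of all tested genes were, and the median was -0.13 against -0.15 for all tested genes. By limma, 0 genes were higher and 0 lower, where 0.56% and 1.38% of all tested genes were (1.94% in all), and limma with voom weights called 0. At an unadjusted p under 0.05, 4 were lower and 1 was higher, against 11.7% and 3.72% of all tested genes. The sign of the median depended on the scaling: it was 0.057 under median centring, against 0.043 for all genes, and 0.11 with voom weights, against 0.012. Without DZ replicate 3 it was -0.0020, against -0.063.

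The lowest changes between the zones were those of Mrpl2, Mrps27 and Mrps5. Mrpl2 had 13.2, 13.6 and 5.36 FPKM in DZ, all below its LZ values (-0.996 ± 0.33, limma adjusted p = 0.172). Mrps27, a protein of the pentatricopeptide repeat family, had 3.36, 4.67 and 3.25 FPKM in DZ and 6.23, 9.07 and 9.79 in LZ (-0.97 ± 0.37, limma adjusted p = 0.239). Mrps5 had 8.35, 6.75 and 2.47 FPKM in DZ and 11.5, 14.3 and 8.51 in LZ (-0.95 ± 0.44, limma adjusted p = 0.334). In all 3 genes the zones did not overlap, and 9 of the 76 genes had all DZ libraries below LZ (11.8%, against 17.1% of all tested genes). Without DZ replicate 3 the changes of Mrpl2 and Mrps5 were -0.60 and -0.52. The highest changes were those of Mrpl53 (0.67), Mrpl14 (0.61) and Mrps18c (0.57). That of Mrpl53 was 0.042 without LZ replicate 1, and those of Mrpl14 and Mrps18c were 0.27 and 0.38 without LZ replicate 2, against 0.93 for Mrpl14 without DZ replicate 3.

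The paralogs Mrps18a, Mrps18b and Mrps18c all descend from the bacterial protein S18, but the first is found in the large subunit and the other two in the small one. Mrps18c had 70.0, 41.4 and 36.2 FPKM in Foxo1-deficient cells, 73.7, 72.5 and 60.6 in DZ, and 50.8, 34.9 and 54.0 in LZ. It was the 1 gene of the set with all DZ libraries above LZ (1.32%, against 5.16% of all tested genes), and its change between the zones had limma adjusted p = 0.293. Mrps18a had 32.0, 23.7 and 10.9 FPKM in Foxo1-deficient cells, 38.3, 40.8 and 22.1 in DZ, and 27.0, 25.2 and 18.0 in LZ, with overlap between all groups. Mrps18b had 16.5, 11.7 and 11.2 FPKM in Foxo1-deficient cells, 19.7, 13.3 and 9.53 in DZ, and 13.5, 20.9 and 20.3 in LZ, with overlap again. Neither Mrps18a nor Mrps18b passed in any comparison (limma adjusted p from 0.409 to 0.939). Helq, the helicase gene that starts opposite Mrps18c, changed by 0.71 between the zones (limma adjusted p = 0.171), beside 0.57 for Mrps18c.

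Mrpl46 and Mrps11, a large-subunit and a small-subunit gene, start 42 bases apart on opposite strands. Mrpl46 had 20.2, 14.4 and 24.2 FPKM in Foxo1-deficient cells, 23.3, 19.5 and 14.0 in DZ, and 15.8, 8.19 and 19.5 in LZ. Mrps11 had 6.45, 6.11 and 9.01 FPKM in Foxo1-deficient cells, 9.41, 4.29 and 1.38 in DZ, and 5.13, 6.71 and 12.7 in LZ. Mrpl46 was the higher of the pair in all 9 libraries, and the groups overlapped for both genes.

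**Figure D4:**
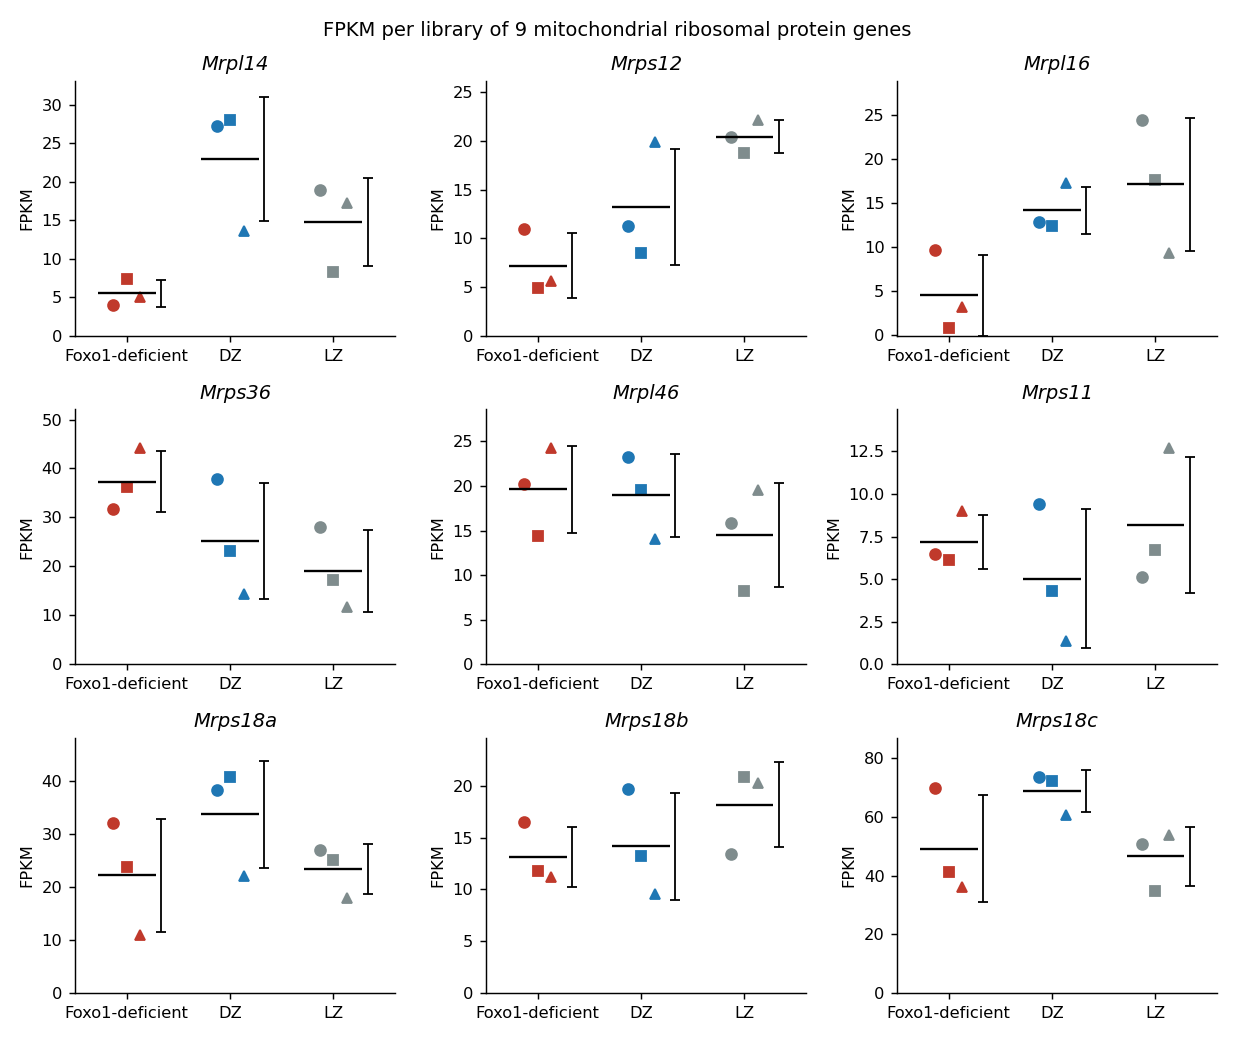
FPKM per library (circles, squares and triangles are replicates 1, 2 and 3) of 9 mitochondrial ribosomal protein genes in Foxo1-deficient, DZ and LZ cells, with lines for group means and bars for ± 1 SD (n = 3). Mrpl14 lies at 4.05 to 7.44 in Foxo1-deficient cells, below all 6 zone libraries, Mrps18c lies at 60.6 to 73.7 in DZ and 34.9 to 54.0 in LZ, and Mrps36 is at 31.7 to 44.1 in Foxo1-deficient cells.

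Mrps30, despite its name, is found in the large subunit, and had 9.45 ± 1.27 FPKM in Foxo1-deficient cells, 12.8 ± 1.71 in DZ and 9.74 ± 2.93 in LZ (SD, n = 3 each). Its Foxo1-deficient libraries lay below DZ without overlap (-0.41, limma adjusted p = 0.459). Mrpl12, the homolog of the bacterial stalk protein that recruits translation factors, had 24.6, 36.4 and 11.6 FPKM in Foxo1-deficient cells, 30.7, 37.4 and 9.89 in DZ, and 26.3, 28.1 and 29.8 in LZ. Replicate 3 was the lowest in Foxo1-deficient cells and in DZ, and its changes had limma adjusted p from 0.806 to 0.975.

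Values of exactly 0 were listed for 3 genes. None of these was flagged as a failed estimate, but a listed 0 need not mean that the RNA was absent. Mrps34 had 19.4 and 16.8 FPKM in Foxo1-deficient replicates 1 and 2 and was listed at 0 in replicate 3, against 10.0 to 16.5 in DZ and 11.2 to 24.1 in LZ. Mrps35 had 6.12 and 13.3 FPKM in Foxo1-deficient replicates 1 and 2 and was listed at 0 in replicate 3, against 2.68 to 9.00 in DZ and 6.36 to 12.0 in LZ. Mrps6, the least covered gene of the set, was listed at 0 in Foxo1-deficient replicate 3 and LZ replicate 1, and was at 2.06 to 10.9 FPKM in the other libraries. With these 3 genes left out, the sums of the other 73 genes were 1426, 1368 and 1204 FPKM in Foxo1-deficient cells, against 1557, 1581 and 1601 in LZ.

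Genes of the mitochondrial ribosome that carry other names were also mostly below 0. All 7 of them (Dap3, Ptcd3, Chchd1, Aurkaip1, Ict1, Gadd45gip1 and Mrp63) were below 0 in Foxo1-deficient cells against LZ, and 5 of 7 against DZ. Of all tested genes, 52% and 38.8% were. The 7 changes against LZ ran from -0.93 to -0.036, and they rest on the same libraries as those of the 76 genes. Their medians were -0.20 and -0.33, against -0.020 and 0.12 for all tested genes, and 0 of the 7 passed in any comparison. Chchd1, a small-subunit protein, had 26.7, 12.4 and 12.0 FPKM in Foxo1-deficient cells and 38.7, 21.6 and 36.4 in LZ, with overlap (-0.93 ± 0.32, limma adjusted p = 0.223). Mrp63 had 2.75, 4.38 and 5.27 FPKM in Foxo1-deficient cells and 10.7, 7.10 and 7.58 in DZ, without overlap (-0.89 ± 0.30, limma adjusted p = 0.167).

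The rest of mitochondrial gene expression was read from lists of other genes. Of 25 genes of mitochondrial ribosome assembly found, 1 was lower in Foxo1-deficient cells than in LZ, where 0.87% of all tested genes were. The same gene was lower in DZ than in LZ, where 1.38% of all tested genes were. It was C1qbp, a mitochondrial matrix protein that binds RNA, with 42.6, 45.8 and 30.2 FPKM in Foxo1-deficient cells, 52.3, 43.0 and 28.9 in DZ, and 87.4, 82.0 and 95.8 in LZ. The LZ libraries lay above all others, with changes of -1.16 ± 0.23 in Foxo1-deficient cells against LZ and -1.11 ± 0.23 in DZ against LZ (limma adjusted p = 0.0325 and 0.0356). The C1qbp calls were not followed under the alternatives. Of 16 mitochondrial translation factors, 20 mitochondrial tRNA synthetase genes and 17 genes of mitochondrial DNA expression, 0 passed in any comparison. Their medians in Foxo1-deficient cells against LZ were -0.22, -0.11 and 0.02, where that of all tested genes was -0.020. Against DZ they were 0.05, -0.07 and 0.36, where that of all tested genes was 0.12. The synthetase gene Lars2 was listed at 8140 to 8638 FPKM in Foxo1-deficient cells, 10610 to 16049 in DZ and 7528 to 10099 in LZ, far above any other gene of these lists. Which reads make up this value was not tested, so it may not be a level of the synthetase RNA. It is also part of the FPKM of single-locus genes used for the shares above.

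Regulators of mitochondrial biogenesis formed a last list of 14, of which 12 could be tested. Myc had 11.4, 12.8 and 8.38 FPKM in Foxo1-deficient cells, 6.72, 8.06 and 4.35 in DZ, and 21.4, 23.8 and 25.9 in LZ. It fell by 1.77 in DZ against LZ (limma adjusted p = 0.00641), and its change in Foxo1-deficient cells against LZ was -1.07 ± 0.25 (limma adjusted p = 0.064). Tfam packages mitochondrial DNA and takes part in its transcription. It had 8.26 ± 1.76 FPKM in Foxo1-deficient cells, 11.0 ± 3.67 in DZ and 8.51 ± 0.342 in LZ (SD, n = 3 each) and did not pass (limma adjusted p from 0.572 to 0.954). Besides Foxo1 itself and Myc, 0 of the list passed.

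Nuclear genes named for the respiratory chain and ATP synthase, and for the cytosolic ribosome, were compared by their medians relative to all tested genes. Both sets were picked by gene symbol alone, so they can hold genes that are not subunits or ribosomal proteins. The cytosolic set took every symbol starting with Rpl or Rps and a digit, which also fits kinase genes named after a ribosomal protein. In Foxo1-deficient cells against LZ the medians were -0.24 for the 76 genes, -0.20 for the respiratory chain set (80 tested) and -0.08 for the cytosolic set (87 tested). Against DZ they were -0.29, -0.42 and -0.12, and in DZ against LZ 0.014, 0.21 and 0.050. In each of these other sets 0 genes passed by limma in any comparison. The comparisons share libraries, no test was made between the sets, and the values are descriptions.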

How the data were processed

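RNA of 9 libraries of sorted germinal center B cells was analysed. Total RNA was turned into libraries with an NEBNext Ultra kit, per the labels. The deposited tables, 1 per library, hold FPKM values with confidence bounds in the Cufflinks layout, per the file headers. Cufflinks 2.1.1, TopHat2 2.0.8 and mm9 are listed in the submitters' processing notes. The FPKM total, any bias correction and the strand setting are not given in the sources used here, so reads of overlapping genes (9 of the 76 genes overlap another locus) cannot be told apart. Loci are those of the files on mm9, with starts raised by 1 because the files count from 0. Promoters are RefSeq entries on GRCm38.p6.

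Of 23700 entries per table, 716 of 250 repeated symbols and 7 genes with a failed estimate were removed. The 10004 genes that reached 1 FPKM in 3 or more libraries were tested with limma 3.58.1 (trend) on log2(FPKM + 1), in 1 fit of 3 group means, with Benjamini-Hochberg adjustment within each comparison and a threshold of 0.05, two-sided. Changes are on that scale, where those of low genes come out too small. Zero values of FPKM stayed in the fit. The script was tested on simulated data. Depth is unknown, but Cufflinks bounds, read as 2 SD of a Poisson count, gave implied fragments and a relative depth of 0.831 to 1.12. These fragments served as weights in 1 alternative only (voom, with trimmed-mean scaling).

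Genes named are those past the threshold, the 3 highest and 3 lowest changes per comparison, the 5 highest and 5 lowest levels, those listed at 0, the paralogs of Mrps18, and Mrps30, Mrps36 and Mrpl12. Mrps7, Mrpl18, Mrpl19, Mrpl22, Mrpl33, Mrpl40, Mrpl44, Lars2, Sars2, Tmem63b, Helq and the stretches shown were picked after values were seen. The set and all lists were chosen with earlier results of these data known. Other lists were marker genes of B, germinal center B, T, plasma, myeloid and erythroid cells and mitochondrial gene expression genes. The 5 germinal center B cell markers summed to 396 to 457 FPKM in Foxo1-deficient cells, 276 to 370 in DZ and 294 to 346 in LZ, and 5 plasma cell markers to 233 to 355, 189 to 289 and 124 to 151. Of the marker lists not counted in the report, Ms4a1 was higher in Foxo1-deficient cells than in DZ, and Igj higher in Foxo1-deficient cells and in DZ than in LZ; 1 B cell marker and the sum of that list are not reported here. Alternatives were another pseudocount (0.1), no filter, quantile normalization, median centring, a replicate block, only the compared groups, voom weights, and each library left out. Leaving out replicate 3 of both Foxo1-deficient and DZ cells was added after the data were seen, as were the sums without genes listed at 0 and the share of all entries.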

Additional observations from a re-analysis of the deposited data

How the results depend on the processing

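The count of 0 higher genes was the same in all 17 alternatives of each comparison, as was that of 0 lower genes between DZ and LZ. The count of lower genes against LZ ran from 0 to 2 without single libraries, and that against DZ from 0 to 2. Without Foxo1-deficient replicate 1 the 2 genes were Mrpl16 and Mrps12 against LZ and Mrpl16 and Mrpl33 against DZ. The count against DZ was 0 with no filter, with voom weights, and without replicate 3 of both groups. With the replicate number as a block, a pairing the labels do not state, the medians were -0.26, -0.17 and -0.13, and 0, 1 and 0 genes were lower. Deviations of same-numbered libraries correlated at -0.067 to 0.075. The own number was the best match in 14 of 18 checks, each among the 3 libraries of another group. Whether same-numbered libraries share hosts is not stated, and the main fit treated them as independent. Median changes ran from -0.32 to -0.15 against LZ, -0.28 to -0.0040 against DZ and -0.18 to -0.0020 between zones without single libraries. Under median centring the medians were -0.35 against DZ and 0.057 between zones, and with voom weights 0.11 between zones. Relative to all genes, the set's median was -0.30 to -0.16 against LZ, -0.32 to -0.16 against DZ and -0.067 to 0.10 between zones over all alternatives. Counts over all genes were less stable. Against LZ, 156 became 99 with the pseudocount of 0.1, 58 with only the compared groups, 60 without replicate 3 of both groups and 48 to 145 without single libraries. Against DZ, 285 became 77 without replicate 3 of both groups and 127 to 246 without single libraries. Between zones, 194 became 109 with no filter, 122 when each fit held its own 6 libraries, 118 without replicate 3 of both groups and 72 to 210 without single libraries. The highest counts were 213 against LZ, under quantile normalization, and 406 against DZ and 234 between zones, both under median centring. Higher genes were 73.7% of the calls against DZ and 28.9% between zones, and 60.8% and 42.8% under quantile normalization, 44.6% and 56.8% under median centring. Ratios of summed FPKM ran from 0.808 to 0.885 (Foxo1-deficient over LZ), 0.827 to 0.945 (over DZ) and 0.894 to 1.02 (DZ over LZ) without single libraries. Of 1377 values of named genes under alternatives, 7 lost a call, 4 gained one and 0 reversed a call, and 67 others with no call moved by more than 1 SE, 22 of them to the other sign. The cause of these shifts was not tested.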

Other observations

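The spread between replicates of a group varied among the 73 genes never listed at 0. The coefficient of variation within groups had a median of 0.347 and ran from 0.0649 (Mrps21) to 0.68 (Mrpl22). It was lower where the confidence intervals imply more fragments, with a Spearman's rho of -0.58 across genes, which share the same 9 libraries and are not independent. Foxo1-deficient replicate 3 held the lowest of the 9 values for 22 of the 76 genes, DZ replicate 3 for 15 and LZ replicate 1 for 11, against 0 to 9 for the other 6 libraries. LZ replicates 1, 2 and 3 held the highest value for 13, 15 and 13 genes.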
